A study of Sus scrofa with 9 samples.

Results

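Human DUX4 and pig DUXC were compared directly in pig myoblasts. The 3 libraries of cells with an inducible human DUX4 transgene were set against the 3 libraries of cells with an inducible pig DUXC transgene, which makes 6 of the 9 libraries of the study. Every gene that passed a filter on low counts entered the comparison, 15956 of the 27339 genes in the count table. The 3 libraries with inducible GFP served only as a reference level and for the shared estimate of the spread between libraries. All cells were primary myoblasts, the dividing precursors of skeletal muscle fibres, from Göttingen minipigs at passages 7 to 9. The transgene was doxycycline-inducible in all 3 kinds of cell, and all were kept in 1 µg/mL of the drug for 16 h, so the GFP cells carried the drug and an induced protein as well. Nothing in the labels ties a library to its own animal, line or culture, and the p-values below rest on the spread among these 3 libraries per group, part or all of which may be technical. The amount of each transgene product was not analysed here, and a difference between the factors cannot be told apart from a difference in how much of each was made.

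DUX4 and DUXC are double homeobox transcription factors, proteins with a pair of DNA-binding homeodomains. In the human embryo DUX4 is made briefly at cleavage stages, where it switches on a set of embryonic genes that includes other homeobox genes of the PRD-like class and ZSCAN4. It is silent in healthy skeletal muscle, and its misexpression there causes facioscapulohumeral muscular dystrophy, in which embryonic and germline genes come on and muscle cells die. DUXC is the double homeobox gene of several mammals that lack DUX4, and DUX4 is thought to descend from a DUXC-like ancestor.

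Levels are given as normalised counts (CPM, counts scaled to a common library size), and differences as log2 of DUX4 over DUXC, so that a positive value means a higher level with DUX4. A gene was called where its adjusted p, by the quasi-likelihood test of edgeR and the Benjamini-Hochberg method over all genes tested, was under 0.05. Total counts were 39842081 to 44420895 in the DUX4 libraries and 36580573 to 38971217 in the DUXC libraries. The typical spread between libraries of a group, estimated over all groups together, was a coefficient of variation of 3.38%, and at this spread small differences could pass the test. The groups were unequal in spread, and the shared estimate does not show this. The chi-square per degree of freedom between 2 libraries, which sets their difference against counting noise, was 6.83 to 17.9 with DUX4. It was 3.19 to 4.39 with DUXC and 2.62 to 3.67 with GFP. The defining myogenic factors were nearly absent from all groups: MYOD1 had 9 counts over the DUX4 libraries, 4 over the DUXC libraries and 1 over the GFP libraries, and MYOG had 11, 19 and 6. MYF5, the factor of undifferentiated myoblasts, stood at 1.84 to 2.34 CPM with DUX4, 1.49 to 2.06 CPM with DUXC, against 0.411 to 0.872 CPM in GFP cells, and differed between the factors only without DUX4 library 1 (adjusted p = 0.041). Of 8 muscle lineage markers, 4 were under 1 CPM with DUX4, 3 with DUXC and 5 with GFP, while 8 fibroblast markers summed to 23200 to 26100 CPM with DUX4 and 15500 to 15700 CPM with DUXC, against 37900 to 40500 CPM in GFP cells.

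The factors separated most of the genes tested, and the large differences lay mainly on the side of DUXC. Of the 15956 genes, 6515 were higher with DUX4 (40.8%) and 6635 were higher with DUXC (41.6%), together 82.4%, with a median log2 difference of -0.0079 over all of them. At 2-fold or more the sides were unequal, with 1568 genes higher with DUX4 (9.83%) and 3309 higher with DUXC (20.7%), together 30.6%. All 3 DUX4 libraries lay above all 3 DUXC libraries in 6535 genes (41%), and the reverse held in 6707 (42%). At 8-fold or more there were 70 genes higher with DUX4 and 1039 higher with DUXC. The imbalance was wide among genes of low level. Where the higher factor gave at most 1 CPM, 226 of 2413 genes tested were at least 2-fold higher with DUX4 and 1000 with DUXC. Where it gave over 100 CPM the numbers were 306 and 336 of 2417. At low level a gene scarce with 1 factor could pass the filter only through another group, so these counts describe tested genes only.

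**Figure D1:**
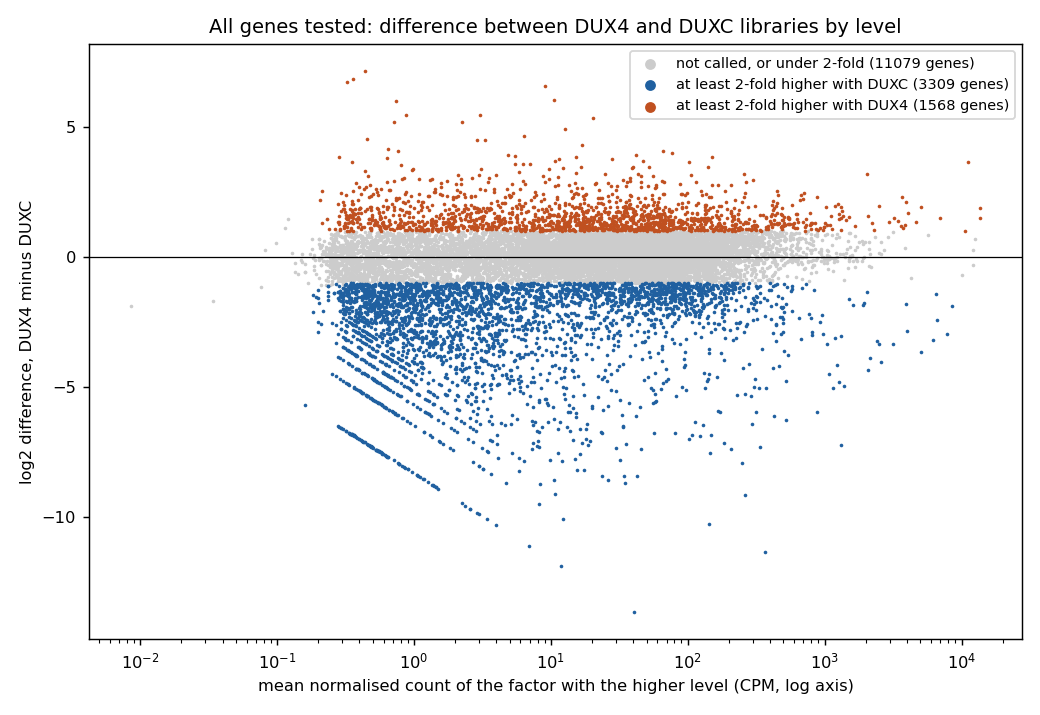
Log2 difference between DUX4 and DUXC for each of the 15956 genes tested (vertical axis) against the mean level of the factor with the higher level (horizontal axis, CPM, log scale). The 3309 blue points at least 2-fold higher with DUXC spread further from 0 than the 1568 orange points at least 2-fold higher with DUX4, most of all at low levels, where the diagonal lines are genes with few counts in the DUX4 libraries.

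The genes at least 8-fold higher with DUXC held 6.08% to 6.43% of all counts in the DUXC libraries, 0.376% to 0.403% in the DUX4 libraries and 0.142% to 0.146% in the GFP libraries. The genes at least 8-fold higher with DUX4 held 1.43% to 1.49% of the counts in the DUX4 libraries, 0.133% to 0.135% in the DUXC libraries and 0.402% to 0.42% in the GFP libraries. These genes were therefore scarce in GFP cells on the DUXC side, while on the DUX4 side the GFP cells lay between the factors.

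The leading genes on the DUXC side, chosen for the size of this difference, had next to no counts with DUX4, and 11 of the 12 had next to none with GFP either. KCNK10, a background potassium channel (chr7:110117087-110271877 in Sscrofa11.1), stood at 40.6, 42.5 and 38.6 CPM with DUXC and had no count in any DUX4 library, so it was at least 1668-fold higher with DUXC against a floor of 3 counts over the group. CCR4, a chemokine receptor known from T cells, stood at 11.4, 12.6 and 11.3 CPM with DUXC and had no count with DUX4, a difference of at least 485-fold. In both genes a single GFP library had a trace, of 0.0257 CPM for KCNK10 and 0.0245 CPM for CCR4. CYP7A1, the rate-limiting enzyme of bile acid synthesis in liver (chr4:74343101-74372628), stood at 354, 371 and 379 CPM with DUXC and at 0.172, 0.184 and 0.0513 CPM with DUX4, a log2 difference of -11.35 (SE 0.081, adjusted p = 3.18e-58). Its span overlaps that of SDCBP, which stood at 110 to 116 CPM with DUX4 and 116 to 120 CPM with DUXC. The strand setting of the counting is not given in the sources used here, so reads of overlapping genes cannot be told apart.

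MSTN, the gene of myostatin, which restrains muscle growth (chr15:94623526-94628440), stood at 253, 268 and 271 CPM with DUXC, at 0.541, 0.413 and 0.436 CPM with DUX4 and at 0, 0.077 and 0 CPM with GFP. The log2 difference of MSTN was -9.15 (SE 0.075, adjusted p = 7.19e-53), and the span of the gene overlaps that of C15H2orf88. Hormone and bone genes were in the same group. PRL, the pituitary hormone prolactin, stood at 11.5, 13.3 and 12.2 CPM with DUXC against 1 count in all DUX4 libraries together, a ratio of 1522 with a 95% counting interval of 273 to 60166. IBSP, bone sialoprotein, stood at 7.85, 8.01 and 8.56 CPM with DUXC against 1 count with DUX4, a ratio of 1003 with an interval of 180 to 39673. CRHBP, which binds corticotropin-releasing hormone, stood at 22.1 to 26.1 CPM with DUXC and 0.0492 to 0.0918 CPM with DUX4 (-8.45). The serotonin receptor gene HTR1F stood at 14.6 to 16.1 CPM with DUXC and 0.0246 to 0.0918 CPM with DUX4 (-8.22).

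The other leading genes on this side were ST8SIA6, a sialyltransferase, MAGEB3, a gene of the cancer-testis MAGE family, KLLN and SCARA5. ST8SIA6 stood at 7.93 to 8.91 CPM with DUXC against 2 counts with DUX4, a ratio of 513 with an interval of 142 to 4243. MAGEB3 stood at 5.14 to 6.55 CPM with DUXC against 2 counts with DUX4, a ratio of 364 with an interval of 100.5 to 3013. KLLN, an inhibitor of DNA replication, stood at 17.4 to 17.8 CPM with DUXC and 0.0256 to 0.0918 CPM with DUX4 (-8.20). SCARA5, a ferritin receptor of stromal cells, was the exception in its reference level: GFP cells had 11, 12.3 and 11.6 CPM, DUXC cells 35.2, 34.6 and 33.2 CPM, and DUX4 cells only 0.0492, 0.0918 and 0.154 CPM. Its difference of -8.42 therefore joined a level above GFP with DUXC to a level near 0 with DUX4.

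The leading genes on the DUX4 side reached lower folds, and most had a measurable level in GFP cells. HAND1, a transcription factor of trophoblast and heart (chr16:68679977-68683346), stood at 9.98, 9.57 and 7.72 CPM with DUX4 and at 0.155, 0.049 and 0.0765 CPM with DUXC, a log2 difference of 6.57 (SE 0.218, adjusted p = 9.65e-31). GFP cells had 0.538 to 0.667 CPM of HAND1, above all DUXC libraries and below all DUX4 libraries. CASP14, a caspase of the outer epidermis (chr2:62522294-62531594), stood at 9.74, 10.1 and 11.7 CPM with DUX4, at 0.103, 0.147 and 0.229 CPM with DUXC and at 2.36 to 2.62 CPM with GFP, a log2 difference of 6.01. CYP1A1, the detoxifying enzyme that the aryl hydrocarbon receptor induces (chr7:58802887-58809155), stood at 62.6, 60.2 and 47.2 CPM with DUX4 and at 0.671, 1.35 and 1.1 CPM with DUXC (5.76, SE 0.214, adjusted p = 9.62e-08). Among other targets of this receptor, AHRR, its repressor, was higher with DUX4 (1.39) and TIPARP was higher with DUXC (-1.23).

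Several of the others are known from neurons and sensory cells. CCK, the gut and brain peptide cholecystokinin, stood at 12.6, 12 and 13.5 CPM with DUX4 and at 0.465, 0.441 and 0.357 CPM with DUXC (4.90). TAC1, the precursor of substance P, stood at 40.2, 46.1 and 38.8 CPM with DUX4, at 2.5, 2.79 and 2.98 CPM with DUXC and at 0 in all GFP libraries (3.92). VGF, a neuropeptide precursor, stood at 146, 162 and 145 CPM with DUX4 and at 9.97, 10.8 and 10.6 CPM with DUXC (3.85). TAC1 was thus the one leading gene on the DUX4 side without a count in GFP cells. TRPA1, an ion channel that senses irritants, stood at 73 to 82 CPM with DUX4 and 4.64 to 4.91 CPM with DUXC (4.0). SEMA7A, a membrane-bound semaphorin, stood at 61.5 to 69.4 CPM with DUX4 and 3.77 to 4.26 CPM with DUXC (4.05). The remaining members of the group were RASD2, a small GTPase (5.32), P2RY6, a nucleotide receptor (4.64), SLC1A6, a glutamate transporter (4.31), and CBLN4, a secreted synaptic protein (3.87), and in all 12 genes the libraries of the factors did not overlap, which was part of the rule that chose them.

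**Figure D2:**
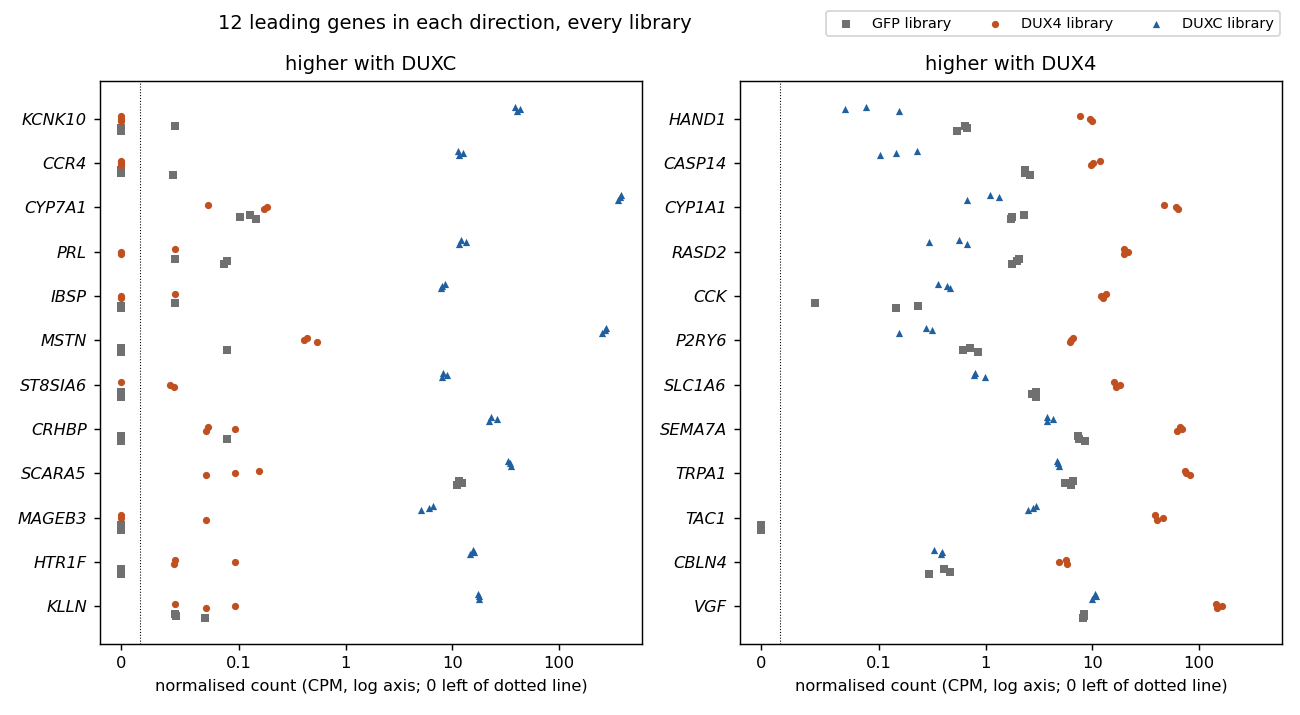
Normalised counts (CPM, log axis, with 0 drawn left of the dotted line) in every library for the 12 leading genes in each direction. In the left panel the DUXC triangles stand apart from DUX4 and GFP points, except in SCARA5, whose GFP points lie near the DUXC points; in the right panel the GFP squares lie between the factors in 8 genes, below both in CCK, TAC1 and VGF, and among the DUXC points in CBLN4.

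The lists of genes by function divided between the factors in different ways. Lists of cleavage-stage, pluripotency, interferon and inflammatory genes lay on the DUXC side, and lists of DNA replication, mitosis, glycolysis, amino acid supply, protein folding and respiration lay on the DUX4 side. Many lists of muscle, matrix and signalling genes held large differences in both directions. Members with too few counts in every group were not tested, and a gene scarce in 1 factor could be tested only through its level in another group, so the counts below describe tested members. Fewer cells of a type and less RNA per cell cannot be told apart in these bulk libraries.

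**Figure D3:**
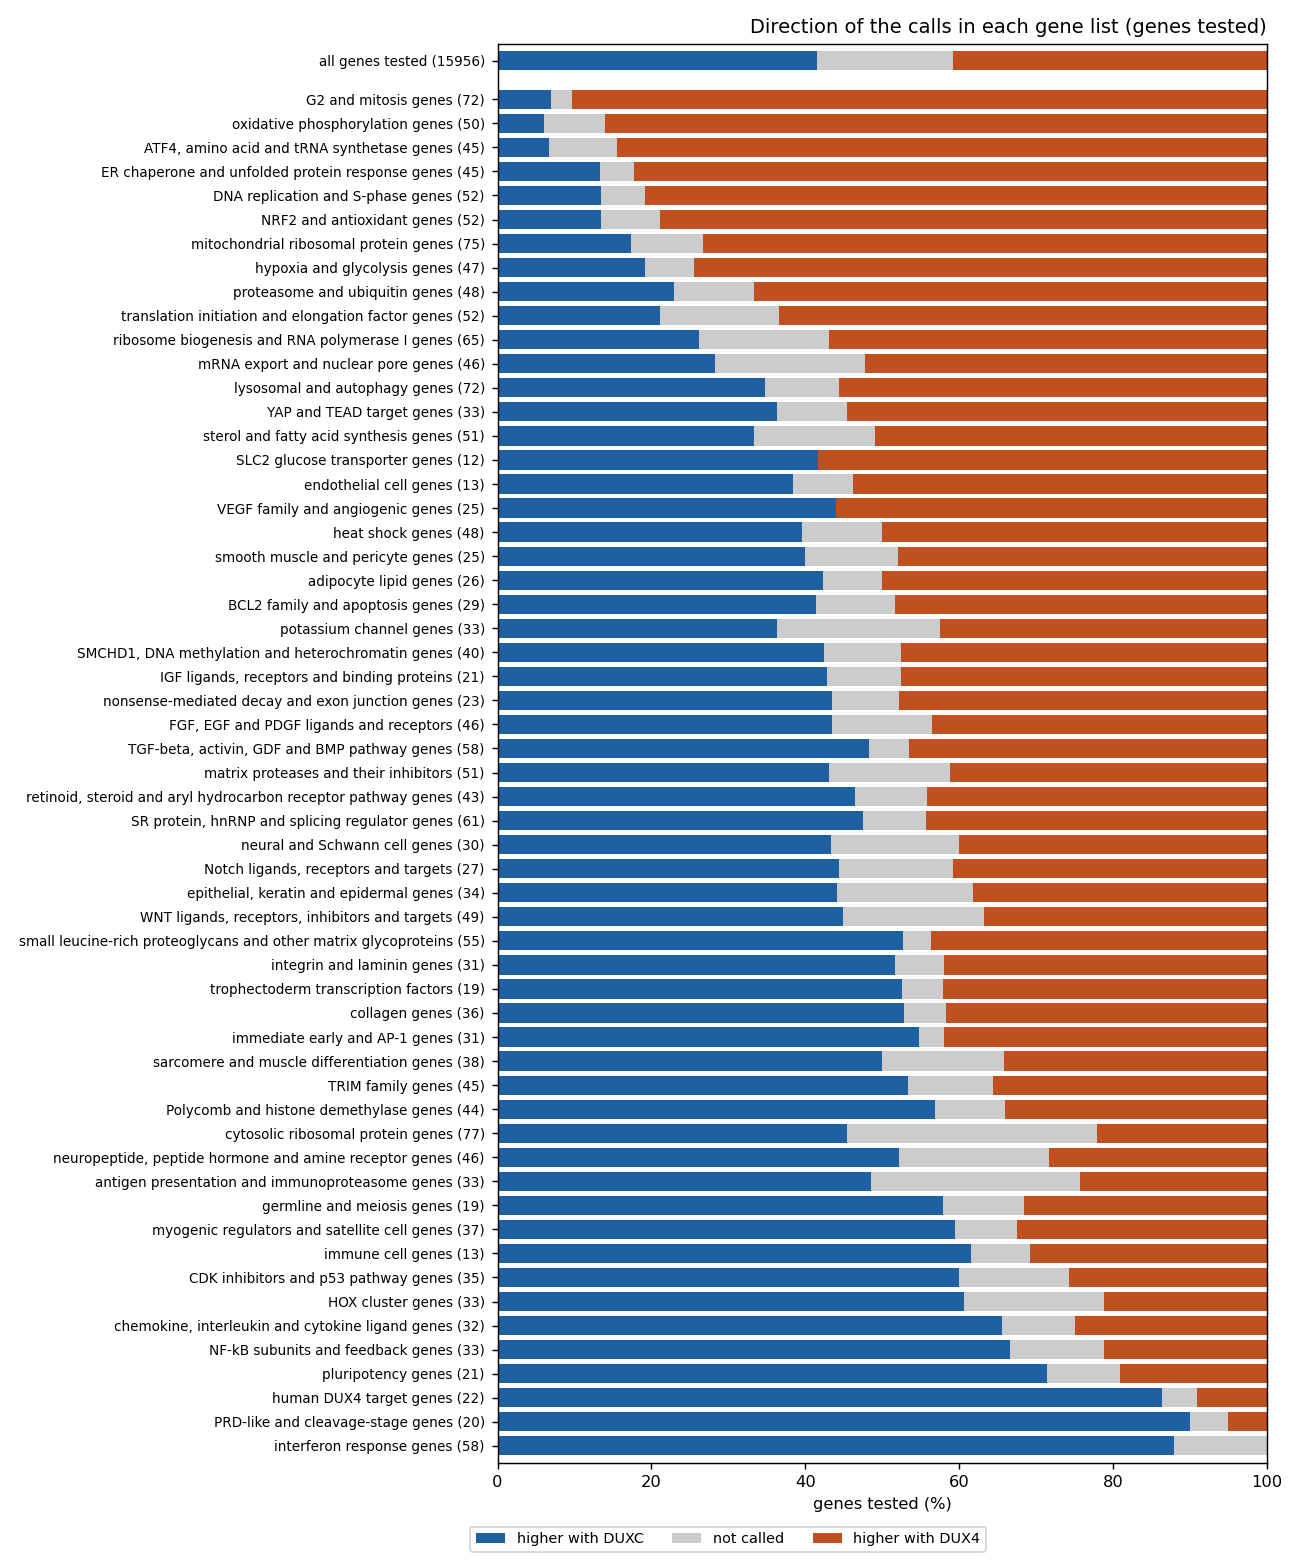
Percentage of tested members called higher with DUXC (blue), called higher with DUX4 (orange) or not called (grey) in each of the 57 gene lists with at least 10 tested members, with the number tested in brackets and all 15956 genes at the top. Interferon response genes have no orange part, and G2 and mitosis genes are almost wholly orange.

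Genes of the cleavage-stage embryo lay on the side of DUXC. Of 20 tested members of the PRD-like and cleavage-stage list, 18 were higher with DUXC and 1 with DUX4, where over all genes tested 41.6% and 40.8% were, with a median log2 difference of -2.55. Another 10 members in the table had too few counts to test. The list named 51 genes, of which 30 were in the table. Without DUX4 library 2, and also without the low-count filter, 2 members were higher with DUX4. C13H3orf56, a gene outside this list (chr13:72876782-72879304), stood at 2533, 2784 and 2489 CPM with DUXC, at 143, 166 and 166 CPM with DUX4 and at 0 to 0.0734 CPM with GFP, a log2 difference of -4.04 (SE 0.083, adjusted p = 1.56e-09). LEUTX, a PRD-like homeobox gene of the cleavage embryo (chr6:48240324-48248568), stood at 104, 114 and 106 CPM with DUXC, at 0.664, 1.1 and 1.03 CPM with DUX4 and at 0 with GFP (-6.85, SE 0.08, adjusted p = 1.46e-44). Both genes were thus present with either factor and near 0 with GFP, and the DUXC level was the higher by a wide margin.

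UBTFL1, a gene of the preimplantation embryo, stood at 134, 144 and 138 CPM with DUXC and at 4.4, 5.16 and 5.77 CPM with DUX4 (-4.77). DPRX, another PRD-like homeobox gene, stood at 6.63 to 8.03 CPM with DUXC and 0.0246 to 0.252 CPM with DUX4 (-5.79). ZSCAN4, which marks cleavage-stage cells, stood at 0.955 to 1.24 CPM with DUXC against 2 counts with DUX4, a ratio of 68.5 with an interval of 18.6 to 571. KLF17, a factor of the early human embryo, stood at 3.43 to 4.31 CPM with DUXC and 0.27 to 0.641 CPM with DUX4 (-3.18). The maternal factors DPPA2 and DPPA3 also lay on the DUXC side, DPPA2 at 7.13 to 8.86 CPM against 0.0246 to 0.0769 CPM with DUX4. ARGFX, at 1.4 to 1.74 CPM with DUXC and 0.39 to 0.59 CPM with DUX4, had one of the smaller differences (-1.65). DUXA had too few counts to test, 19 over the DUXC libraries, 9 over the DUX4 libraries and 0 over the GFP libraries. The 1 member higher with DUX4 was ZFP36L2, an RNA-binding protein that clears maternal messages, at 33.7 to 36.7 CPM with DUX4 and 15 to 18.4 CPM with DUXC, against 20.8 to 22.2 CPM in GFP cells (1.12).

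The tested part of the list of published targets of DUX4 in human cells, drawn up for the human factor, also lay on the side of the pig factor. The list named 60 genes, of which 29 were in the table, and 7 of those had too few counts to test. Of 22 tested members, 19 were higher with DUXC and 2 with DUX4, with a median log2 difference of -1.94, and 1 member without counts in the DUX4 libraries did not move the median when it was set at its bound. HSPA6, an inducible heat shock protein, had one of the smaller differences, and stood at 127, 80.8 and 93 CPM with DUX4, at 139, 156 and 159 CPM with DUXC and at 0.411 to 0.745 CPM with GFP (-0.60, adjusted p = 0.0135). RFPL4B, an oocyte and embryo gene, stood at 15.2 to 19.9 CPM with DUX4, at 24.7 to 28.2 CPM with DUXC and at 0 with GFP (-0.54). NXF1, the main mRNA export receptor, stood at 121, 122 and 126 CPM with DUX4 and at 954, 996 and 958 CPM with DUXC (-2.98), and SLC2A3, a glucose transporter, at 294 to 306 and 663 to 716 CPM (-1.21). The 2 members higher with DUX4 had small differences. ARRDC3, which promotes receptor degradation, had overlapping libraries (0.09, adjusted p = 0.0128), lost its call without DUXC library 2 (adjusted p = 0.101) and turned to -0.01184 when counts were scaled by library size alone. The macrophage receptor gene CSF1R, at 0.516 to 0.82 CPM with DUX4 and 0.357 to 0.465 CPM with DUXC (0.69, adjusted p = 0.0275), lost its call without DUX4 library 3 (adjusted p = 0.153), without DUXC library 2 (0.0717) and without DUXC library 3 (0.0759). The number higher with DUX4 fell to 0 without DUXC library 2 and to 1 without DUX4 library 3 or DUXC library 3. It was 0 in DESeq2, where ARRDC3 (adjusted p = 0.368) and CSF1R (0.0583) both lost their calls, 0 with library size alone and 1 with DESeq2 size factors.

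Pluripotency genes leaned the same way. Of 21 tested members, 15 were higher with DUXC and 4 with DUX4, with a median of -1.40, and 14 members in the table were too scarce to test, POU5F1 among them with 23 counts with DUX4, 15 with DUXC and 14 with GFP. SOX2, a core factor of embryonic stem cells, stood at 12.5, 12.7 and 12.9 CPM with DUXC, at 0.467, 0.826 and 0.666 CPM with DUX4 and at no more than 0.0257 CPM with GFP (-4.26). ESRRB, a nuclear receptor of naive pluripotency, stood at 1.99 to 2.38 CPM with DUXC and had no count with DUX4 or GFP, at least 91.7-fold higher with DUXC. NANOG stood at 0.491 to 1.13 CPM with DUXC and had no count with DUX4 or GFP, at least 35.6-fold higher. The 4 members on the DUX4 side were LIN28B, which blocks let-7 maturation (2.98, at 0.692 to 0.934 CPM), DNMT3B, a de novo DNA methyltransferase (1.05), NR5A2 (0.47) and KLF4 (0.45). NR5A2 lost its call without DUXC library 1 (adjusted p = 0.066) and in DESeq2 (0.0669).

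Germline genes divided by gene. Of 19 tested members 11 were higher with DUXC and 6 with DUX4, with a median of -0.53. TEX14, a protein of germ cell bridges, stood at 50.1, 54.1 and 50.1 CPM with DUXC and at 1.6, 2.16 and 2.44 CPM with DUX4 (-4.64). TDRD1, of the piRNA pathway, stood at 0.994 to 1.39 CPM with DUXC and had no count in the other groups, at least 47.7-fold higher. RNF17, a Tudor domain protein of the same pathway, went the other way, at 10.3, 10.5 and 11.5 CPM with DUX4 and 0.671, 0.93 and 0.917 CPM with DUXC (3.67). Among 19 tested trophectoderm factors 8 were higher with DUX4 and 10 with DUXC. GATA2 stood at 74 to 79.1 CPM with DUX4 and 30 to 31.7 CPM with DUXC (1.32), while KLF5 stood at 11.4 to 14 CPM with DUX4 and 35.8 to 41.3 CPM with DUXC, against 0.847 to 1.08 CPM in GFP cells (-1.58).

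HOX genes, which mark position along the body axis, were higher with DUXC in 20 of 33 tested members and with DUX4 in 7, with a median of -0.58, and no member exceeded a log2 difference of 0.667 on the DUX4 side. The number higher with DUX4 was 4 with library size alone and 4 in DESeq2. HOXB6 stood at 172, 189 and 166 CPM with DUXC, at 15.1, 13.1 and 12.5 CPM with DUX4 and at 14.7 to 16 CPM with GFP (-3.69). HOXB2 stood at 43.9 to 50.3 CPM with DUXC and 4.59 to 4.9 CPM with DUX4 (-3.28), and HOXC13 at 17 to 19.4 and 1.75 to 1.81 CPM (-3.36). For HOXB6 and HOXB2 the DUX4 and GFP levels were close, and the DUXC level stood apart. HOXA10 stood at 62.1 to 65 CPM with DUXC, 28.8 to 30.3 CPM with GFP and 17 to 19.4 CPM with DUX4 (-1.83), so that here all 3 groups were separate.

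Mitosis was the function that lay most on the side of DUX4. Of 72 tested G2 and mitosis genes, 65 were higher with DUX4 and 5 with DUXC, with a median log2 difference of 1.66, and 56 were at least 2-fold higher with DUX4. Over all genes tested 40.8% were higher with DUX4, and 9.83% were at least 2-fold higher. MKI67, the proliferation marker Ki-67, stood at 143, 129 and 135 CPM with DUX4, at 24.6, 26.1 and 25.5 CPM with DUXC and at 14 to 15.3 CPM with GFP (2.42, SE 0.042, adjusted p = 1.64e-42). AURKB, a kinase of chromosome segregation, stood at 24.1 to 25.1 CPM with DUX4 and 2.69 to 2.78 CPM with DUXC (3.18), and the mitotic kinase gene PLK1 at 54.6 to 61.2 and 8.91 to 9.67 CPM (2.64). CCNB1, the mitotic cyclin, stood at 132 to 138 CPM with DUX4 and 31.8 to 35.1 CPM with DUXC (2.00). The GFP mean was below both factors in 67 of the 72 genes and in 4726 of all 15956 genes tested, a ranking of means that was not tested.

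A few regulators of mitosis did not follow. MAD2L1, a subunit of the spindle checkpoint, stood at 271, 281 and 269 CPM with DUXC and at 65.2, 64.2 and 62.8 CPM with DUX4 (-2.09). CDC20, the activator of the anaphase-promoting complex that MAD2L1 restrains, stood at 156 to 176 CPM with DUXC and 74.3 to 76.7 CPM with DUX4 (-1.12). CKS2, a CDK subunit (-1.08), CDCA2, which recruits phosphatase to chromatin (-0.81), and CDC25C, the phosphatase that activates CDK1 (-0.56), were the other 3 members higher with DUXC. TOP2A, the topoisomerase of dividing cells, stood at 207 to 231 CPM with DUX4 and 209 to 228 CPM with DUXC and was not called (-0.01, adjusted p = 0.894). With library size alone TOP2A was higher with DUXC (-0.1055, adjusted p = 0.00727).

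DNA replication showed the same lean with more exceptions. Of 52 tested members 42 were higher with DUX4 and 7 with DUXC, with a median of 0.99. RRM2, a subunit of ribonucleotide reductase, stood at 142, 149 and 128 CPM with DUX4, at 12.7, 13.4 and 12.2 CPM with DUXC and at 17.9 to 20.1 CPM with GFP (3.45). UHRF1, which keeps DNA methylation at replication, stood at 42.2 to 46.4 CPM with DUX4 and 4.69 to 4.93 CPM with DUXC (3.18), and the cell cycle factor MYBL2 at 103 to 112 and 11.4 to 12.5 CPM (3.13). In these 3 genes all DUXC libraries lay below all GFP libraries. MCM5, a subunit of the replicative helicase, was 2.74 higher on the log2 scale with DUX4.

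The 7 members higher with DUXC included factors that start replication. E2F7, a repressor of replication genes, stood at 106, 118 and 114 CPM with DUXC, at 15.6, 15.2 and 13 CPM with DUX4 and at 1.74 to 2.26 CPM with GFP (-2.95). CDC6, which loads the helicase, stood at 28.9 to 31.7 CPM with DUXC and 6.23 to 7.67 CPM with DUX4 (-2.14), and ORC1, of the origin recognition complex, at 38.2 to 43.9 and 24.8 to 26.4 CPM (-0.69). POLA1, CCNE1, CLSPN and MCM3 were the other members higher with DUXC, and MCM3 lost its call without DUX4 library 1 (adjusted p = 0.125), without DUX4 library 3 (0.182), without DUXC library 2 (0.127) without DUXC library 3 (0.0587) and without the low-count filter (0.0851).

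Inhibitors of the cell cycle and targets of p53 leaned to DUXC, with 21 of 35 tested members higher with DUXC, 9 higher with DUX4 and a median of -0.27. With library size alone 4 were higher with DUX4. CDKN1B, the CDK inhibitor p27, stood at 66.6 to 68.9 CPM with DUXC, 26.1 to 27.9 CPM with DUX4 and 38.7 to 40.8 CPM with GFP (-1.34). CDKN1C, the CDK inhibitor p57, stood at 7.39 to 8.69 CPM with DUXC and 1.24 to 2 CPM with DUX4 (-2.25). TP53INP1, a stress protein induced by p53, stood at 240, 241 and 240 CPM with DUXC and at 41.4, 41.8 and 42.2 CPM with DUX4 (-2.52). CDKN1A, the CDK inhibitor p21, did not separate the factors: its libraries overlapped, at 495 to 549 CPM with DUX4 and 482 to 502 CPM with DUXC against 1157 to 1200 CPM with GFP. Its log2 difference of 0.09 became -0.00763 when counts were scaled by library size alone (adjusted p = 0.821), and its call was lost without DUX4 library 3 (adjusted p = 0.0548), with DESeq2 size factors (0.223) and in DESeq2 (0.268). PERP and PLK3, both p53 targets, were higher with DUX4 (1.31 and 1.47).

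**Figure D4:**
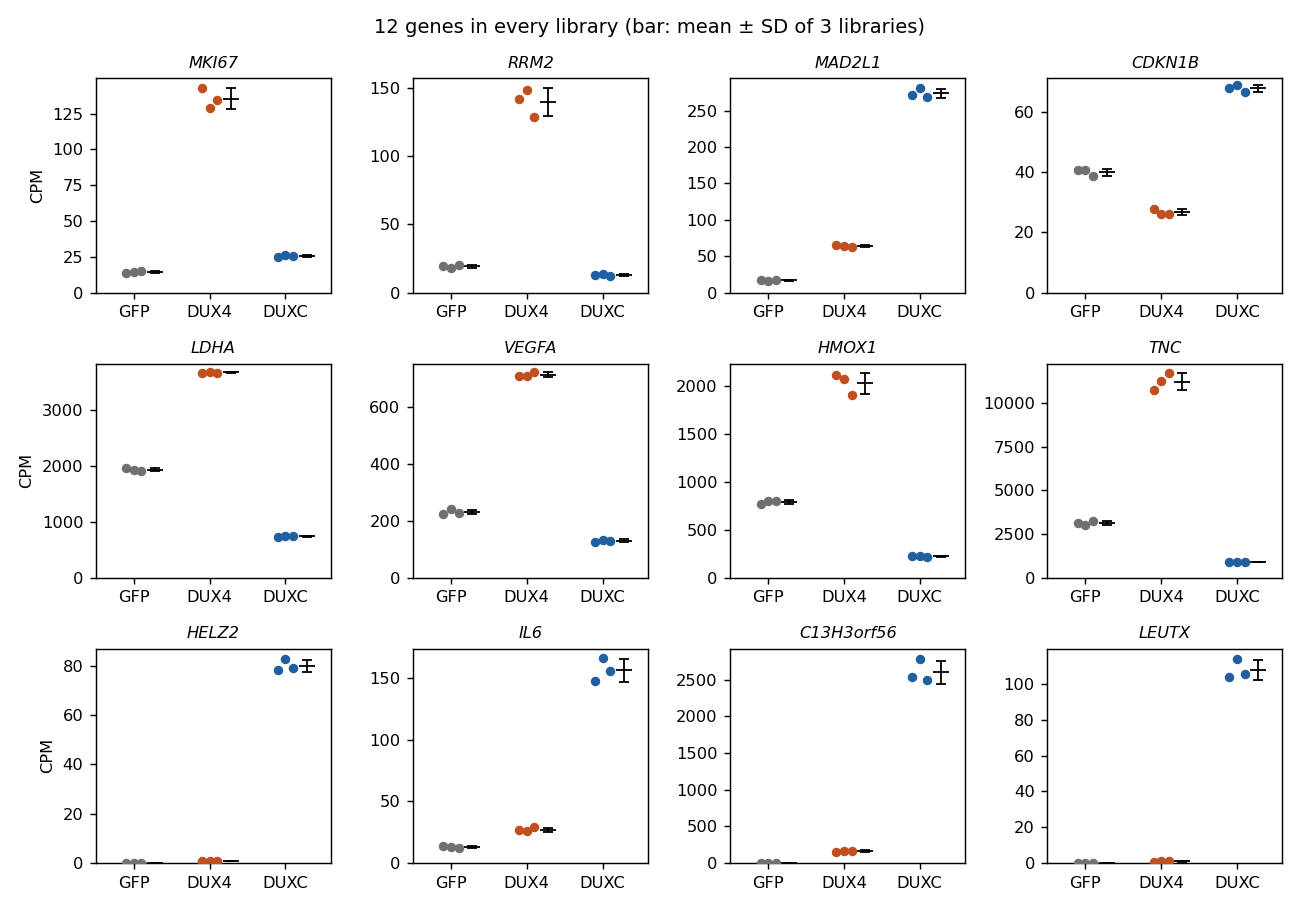
Normalised counts (CPM) of 12 genes in each of the 3 libraries of GFP, DUX4 and DUXC cells (points), with mean and SD of the 3 libraries beside them. MKI67, RRM2, LDHA, VEGFA, HMOX1 and TNC are highest with DUX4, and MAD2L1, CDKN1B, HELZ2, IL6, C13H3orf56 and LEUTX are highest with DUXC, with no overlap between the factors in any of them.

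Glycolysis and the response to low oxygen were higher with DUX4. Of 47 tested members 35 were higher with DUX4 and 9 with DUXC, with a median of 1.31. LDHA, which makes lactate from pyruvate, stood at 3660, 3673 and 3656 CPM with DUX4, at 732, 752 and 747 CPM with DUXC and at 1906 to 1966 CPM with GFP (2.30). The glycolytic enzyme genes GAPDH (1.92), TPI1 (1.97) and PGK1 (1.5) had the same order of groups, with PGK1 at 1307 to 1347 CPM with DUX4, 978 to 983 CPM with GFP and 462 to 478 CPM with DUXC. SLC16A3, the lactate exporter, stood at 188 to 224 CPM with DUX4 and 28.7 to 34.2 CPM with DUXC (2.75). BNIP3, a mitophagy receptor induced by low oxygen, stood at 448, 455 and 448 CPM with DUX4 and at 77.6, 79.3 and 78.1 CPM with DUXC (2.52). The GFP mean lay between the factors in 32 of the 47 genes, and in 6296 of all 15956 genes tested. HIF1A, the oxygen-regulated factor that controls many of them, differed little, at 287 to 290 CPM with DUX4 and 252 to 265 CPM with DUXC (0.17). ADM, the peptide adrenomedullin, stood at 123 to 138 CPM with DUXC and 56.5 to 59.4 CPM with DUX4 (-1.16), and ADM and SLC2A3 were the 2 members at least 2-fold higher with DUXC.

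Angiogenic genes divided between the factors, 14 of 25 higher with DUX4 and 11 with DUXC. VEGFA, the main vascular growth factor, stood at 707, 708 and 722 CPM with DUX4, at 124, 134 and 129 CPM with DUXC and at 226 to 240 CPM with GFP (2.46). Its relative VEGFD, a ligand of lymphatic vessels, went the other way, at 15.6, 16.5 and 17 CPM with DUXC and at 0.0983, 0.0688 and 0.0769 CPM with DUX4 (-7.60). FLT1, a VEGF receptor, stood at 37 to 40.4 CPM with DUX4 and 4.46 to 5.06 CPM with DUXC (3.01), and APLN, the vascular peptide apelin, at 46.1 to 48.7 and 3.26 to 3.99 CPM (3.69). The 7 endothelial markers summed to 84.4 to 88.9 CPM with DUX4 and 74.8 to 79.1 CPM with DUXC, against 58.1 to 62 CPM in GFP cells, with 5, 4 and 5 of them under 1 CPM, and their part in these differences was not tested. Only 4 of the 7 markers were tested, 2 higher with DUX4 and 2 with DUXC. In the longer list of endothelial cell genes 7 of 13 tested members were higher with DUX4 and 5 with DUXC. The number higher with DUXC became 10 without the low-count filter and 8 without DUX4 library 2.

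Protein folding, amino acid supply and antioxidant defence were also higher with DUX4, by smaller amounts. Among 45 tested genes of the endoplasmic reticulum and the unfolded protein response, 37 were higher with DUX4 and 6 with DUXC (median 0.61). P4HB, a protein disulfide isomerase, stood at 1259, 1381 and 1326 CPM with DUX4 and at 344, 353 and 342 CPM with DUXC (1.93), while HSPA5, the chaperone BiP, differed less, at 1881 to 1914 and 1300 to 1351 CPM (0.51). EIF2AK3, which encodes the stress sensor PERK, was higher with DUXC, at 93.2 to 101 CPM against 48.2 to 52.7 CPM (-0.93).

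Among 45 tested genes of amino acid synthesis, amino acid transport and tRNA charging under ATF4, 38 were higher with DUX4 and 3 with DUXC (median 0.87). SLC7A5, a transporter of large amino acids, stood at 297 to 314 CPM with DUX4 and 78.8 to 82.6 CPM with DUXC, against 211 to 230 CPM in GFP cells (1.94). PSAT1, of serine synthesis, stood at 1347 to 1364 CPM with DUX4 and 443 to 467 CPM with DUXC (1.58), and ASNS, asparagine synthetase, at 722 to 744 and 266 to 268 CPM (1.46). The 3 members on the DUXC side, NUPR1 (-0.90), PPP1R15A (-0.81) and CEBPG (-0.13), are known as regulators of the stress response. With library size alone 6 members were higher with DUXC. ATF4 itself stood at 757 to 783 CPM with DUX4 and 523 to 544 CPM with DUXC (0.53).

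Antioxidant genes were higher with DUX4 in 41 of 52 tested members and with DUXC in 7 (median 0.61). HMOX1, heme oxygenase, stood at 2108, 2065 and 1902 CPM with DUX4, at 224, 229 and 217 CPM with DUXC and at 769 to 799 CPM with GFP (3.18). GCLC, the rate-limiting enzyme of glutathione synthesis, stood at 192 to 220 CPM with DUX4 and 61.9 to 65 CPM with DUXC (1.69). NQO1, a quinone reductase, overlapped between DUX4 and GFP cells, at 64.6 to 69.9 and 67.1 to 68.2 CPM, and lower with DUXC at 27.2 to 28.3 CPM (1.30). NFE2L2, which encodes NRF2, the factor that activates these genes, was itself higher with DUXC (-0.56). SOD2, the mitochondrial superoxide dismutase and also a target of NF-kB, stood at 244, 289 and 274 CPM with DUXC and at 43.6, 43.7 and 45.7 CPM with DUX4 (-2.60). ABCC2, an efflux pump, stood at 55.1 to 59.2 CPM with DUXC and 7.68 to 9.32 CPM with DUX4 (-2.71).

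Heat shock genes did not follow this pattern, with 24 of 48 tested members higher with DUX4 and 19 with DUXC (median 0.19). The cochaperone gene DNAJB1 stood at 185 to 201 CPM with DUXC, 83.8 to 85.9 CPM with DUX4 and 35.8 to 38.7 CPM with GFP (-1.18). DNAJB4 stood at 272 to 288 CPM with DUXC and 68.1 to 71.3 CPM with DUX4 (-2.00), and HSPA8, the constitutive HSP70, at 4142 to 4427 and 2403 to 2500 CPM (-0.81).

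Interferon response genes lay mostly on the side of DUXC. Of 58 tested members 51 were higher with DUXC and 0 with DUX4, with a median of -1.16 and 34 members at least 2-fold higher with DUXC. Over all genes tested 41.6% were higher with DUXC, and 20.7% were at least 2-fold higher. The count of 0 interferon genes higher with DUX4 came from edgeR, was also 0 at an unadjusted p under 0.05 and was 0 in DESeq2. It became 1 without DUX4 library 1 or without the low-count filter. HELZ2, an interferon-induced helicase (chr6:59916378-59932537), stood at 78.5, 82.8 and 79 CPM with DUXC, at 0.738, 0.711 and 0.743 CPM with DUX4 and at 0 to 0.0513 CPM with GFP (-6.77); it is also a published DUX4 target and stands in both lists. IFI44 stood at 48 to 53.4 CPM with DUXC, 5.58 to 6.43 CPM with DUX4 and 3.96 to 4.39 CPM with GFP (-3.09), and OAS1, a sensor of double-stranded RNA, at 5.39 to 7.03, 0.123 to 0.308 and 0.077 to 0.196 CPM (-4.78). In IFI44 and OAS1 the DUX4 libraries lay near the GFP libraries.

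Some interferon genes varied widely among the DUXC libraries. RSAD2, the antiviral enzyme viperin, stood at 4, 2.91 and 8.49 CPM with DUXC and at 0.0246, 0 and 0.154 CPM with DUX4 (-6.42, SE 0.96, adjusted p = 0.000674). IFIT1, which binds viral RNA, stood at 15, 12.3 and 21.4 CPM with DUXC and at 2.39 to 2.79 CPM with DUX4 (-2.61), and MX2 at 2.19, 2.42 and 4.18 CPM with DUXC and at 0.393 to 0.487 CPM with DUX4 (-2.73). DUXC library 3 was the highest in all 3 genes, and the lowest DUXC library still lay above all DUX4 libraries. IRF1, an interferon regulatory factor, stood at 93.9, 119 and 105 CPM with DUXC and at 32.3 to 35.6 CPM with DUX4 (-1.63). IFNB1, the ligand interferon beta, was below the filter with 23 counts over the DUXC libraries and 0 over the DUX4 and GFP libraries.

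Inflammatory genes lay on the same side. Of 33 tested NF-kB subunits and feedback genes 22 were higher with DUXC and 7 with DUX4 (median -0.46), and the largest difference on the DUX4 side was 0.68. TNF, the inflammatory cytokine, stood at 10.7 to 12.2 CPM with DUXC and at 0.0983, 0.0229 and 0.0513 CPM with DUX4 (-7.57). VCAM1, an adhesion molecule for leukocytes, stood at 78.1, 85.7 and 83.2 CPM with DUXC, at 2.31, 1.81 and 1.95 CPM with DUX4 and at 2.42 to 3 CPM with GFP (-5.35). The feedback inhibitors NFKBIA and TNFAIP3 were higher with DUXC too, NFKBIA at 148 to 168 CPM against 35.2 to 37.1 CPM (-2.11) and TNFAIP3 at 119 to 134 CPM against 29 to 30.5 CPM (-2.08). The NF-kB subunit genes differed in direction, REL at -1.74 and RELA at 0.64.

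Secreted mediators were also mostly higher with DUXC. Of 32 tested chemokine, interleukin and cytokine genes 21 were higher with DUXC and 8 with DUX4, with a median of -1.39, and 26 members in the table were too scarce to test. CXCL10, a chemokine induced by interferon, stood at 23.5, 42.4 and 30.2 CPM with DUXC and at 0.172, 0.0918 and 0.154 CPM with DUX4 (-7.83, SE 0.485). IL6 stood at 147, 166 and 156 CPM with DUXC, at 26.3, 25.7 and 28.7 CPM with DUX4 and at 12.1 to 13.6 CPM with GFP (-2.54). CCL20, which attracts lymphocytes, stood at 50.9 to 55.2 CPM with DUXC and 3.19 to 4.08 CPM with DUX4 (-3.87). TNFSF10, the death ligand TRAIL, stood at 96.5 to 99.8 CPM with DUXC, 2.55 to 3.15 CPM with DUX4 and 8.4 to 9.4 CPM with GFP (-5.13), so its DUX4 level was below the reference.

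Markers of immune cells moved with these lists. The 7 immune markers summed to 18.5 to 20.1 CPM with DUXC, 8.88 to 10.4 CPM with DUX4 and 9.5 to 11.5 CPM with GFP, 5 of the 7 were under 1 CPM with DUX4 and with GFP and 4 with DUXC, and CD3E, of T cells, had at most 3 counts with either factor. Their part in these results was not tested. In the longer list of immune cell genes 8 of 13 tested members were higher with DUXC and 4 with DUX4 (median -1.05), among them ADGRE1, a macrophage receptor, at 22.5 to 25.5 CPM with DUXC, 0.82 to 1.03 CPM with DUX4 and 0 with GFP (-4.71). Genes of antigen presentation were less one-sided, with 16 of 33 higher with DUXC, 8 with DUX4 and a median of -0.08. NLRC5, the transactivator of class I genes, stood at 4.18 to 5.73 CPM with DUXC and 0.246 to 0.487 CPM with DUX4 (-3.67), and the class II gene SLA-DRB1 stood at 10.7 to 12 CPM with DUX4 and 0.645 to 0.955 CPM with DUXC (3.77).

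**Figure D5:**
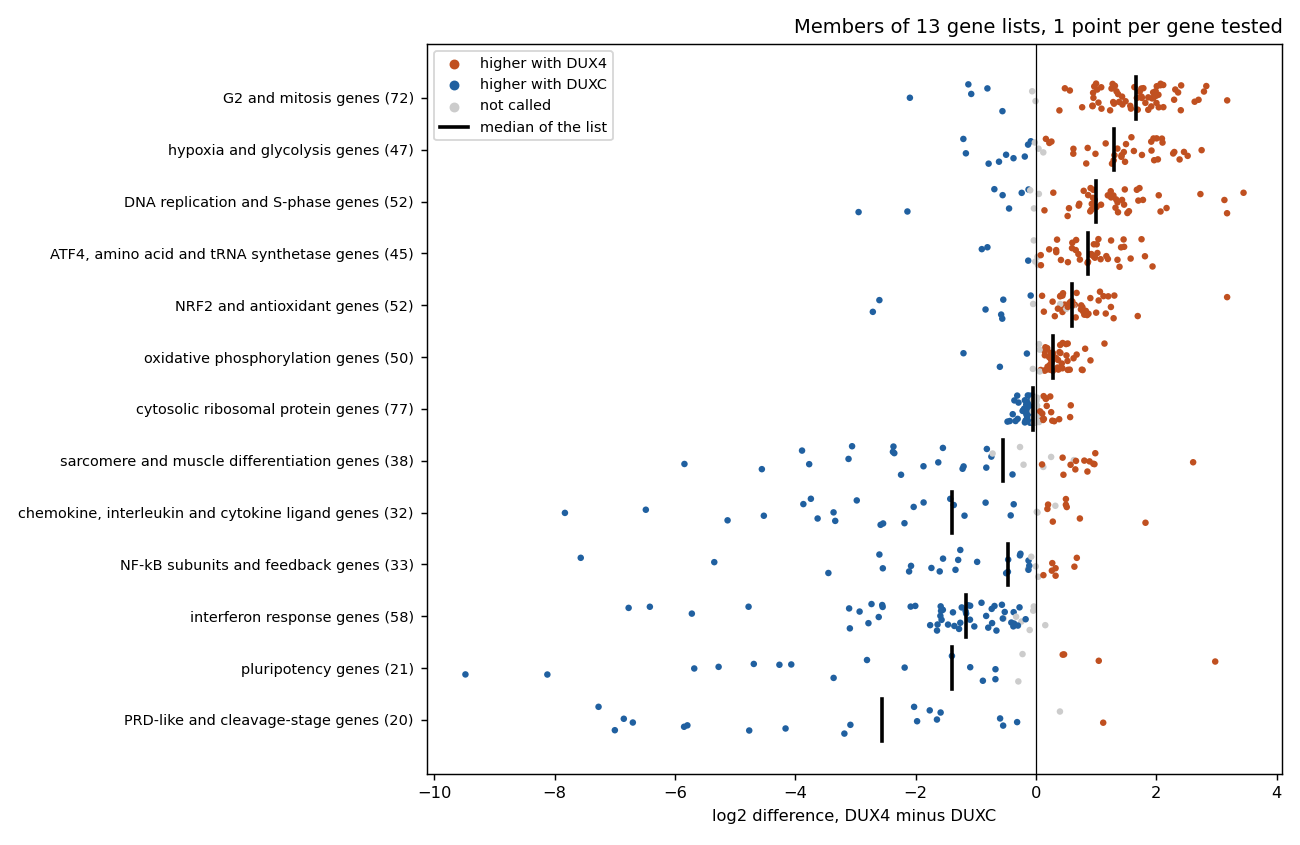
Log2 difference between DUX4 and DUXC for each tested member of 13 gene lists (1 point per gene, coloured by call), with the list's median as a black bar and the number of members tested in brackets. Medians run from 1.66 in G2 and mitosis genes to -2.55 in PRD-like and cleavage-stage genes, and cytosolic ribosomal protein genes stay close to 0.

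Genes of satellite cells and of the sarcomere were more often higher with DUXC than with DUX4. Of 37 tested myogenic regulators and satellite cell genes 22 were higher with DUXC and 12 with DUX4 (median -0.38). Over all genes tested 41.6% were higher with DUXC and 40.8% with DUX4. PAX7, the factor of satellite cells, stood at 1.24, 1.22 and 0.917 CPM with DUXC and at 0.688, 0.528 and 0.487 CPM with DUX4 (-0.99, adjusted p = 0.000299), and PAX3 at 2.27 to 2.88 and 0.762 to 0.872 CPM (-1.70). CDON, a receptor that promotes differentiation, stood at 55.8 to 59.5 CPM with DUXC, 23.1 to 24.9 CPM with GFP and 7.16 to 8.26 CPM with DUX4 (-2.91). ITGA7, the laminin receptor of muscle, went the other way, at 13.7 to 15.6 CPM with DUX4 and 3.46 to 4.51 CPM with DUXC (1.86). The 8 muscle lineage markers summed to more with DUX4, 122 to 127 CPM, than with DUXC, 63.3 to 65.9 CPM, or GFP, 96.6 to 105 CPM, and their part in these lists was not tested. NCAM1 alone made up most of each sum, at 104 to 106 CPM with DUX4, 54.5 to 57 CPM with DUXC and 82.2 to 90.6 CPM with GFP. Of the 8 markers 3 were called higher with DUX4 and 1 with DUXC, so the sums mainly describe NCAM1.

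Of 38 tested sarcomere and differentiation genes 19 were higher with DUXC and 13 with DUX4 (median -0.55), and at 2-fold or more the numbers were 15 and 1. The shares over all genes tested were 41.6% and 40.8%, and at 2-fold or more 20.7% and 9.83%. TPM3 and TPM2, the members with the smallest p-values, were higher with DUX4 by under 2-fold. TPM3 stood at 392 to 401 CPM with DUX4 and 217 to 222 CPM with DUXC (0.86). TPM2 stood at 162 to 172 and 86.6 to 95 CPM, against 305 to 314 CPM in GFP cells (0.89). NEB, the giant thin filament protein nebulin, stood at 5.91, 6.22 and 5.63 CPM with DUXC and at 0.418, 0.459 and 0.308 CPM with DUX4 (-3.89). CKM, muscle creatine kinase, stood at 0.852 to 1.15 CPM with DUXC, 0.718 to 0.899 CPM with GFP and 0.0688 to 0.0769 CPM with DUX4 (-3.77). The 1 gene at least 2-fold higher with DUX4 was TNNT1, slow troponin T, at 4.28 to 5.08 CPM against 0.735 to 0.852 CPM with DUXC (2.61). Smooth muscle genes divided, 12 of 25 higher with DUX4 and 10 with DUXC. PLN, the inhibitor of the calcium pump, stood at 89.7 to 91.7 CPM with DUXC and 2.33 to 3.33 CPM with DUX4 (-4.99), and SYNPO2, an actin-bundling protein, at 182 to 188 CPM with DUXC, differed by -3.97. CSPG4, the pericyte proteoglycan NG2, went the other way, at 287 to 308 CPM with DUX4 and 37.8 to 39.5 CPM with DUXC (2.97). The 8 smooth muscle and pericyte markers summed to 1300 to 1410 CPM with DUX4 and 778 to 804 CPM with DUXC, against 3080 to 3290 CPM in GFP cells, 1 of them under 1 CPM in each group, and their part in these genes was not tested.

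Growth signalling around muscle differed in its members more than in its sums. Of 58 tested genes of the TGF-beta, activin, GDF and BMP pathway, which includes MSTN, 27 were higher with DUX4 and 28 with DUXC. INHBE, an activin subunit, stood at 33.4, 35.3 and 39.1 CPM with DUX4, at 5.06, 4.21 and 5.45 CPM with DUXC and at 35.7 to 37.8 CPM with GFP (2.87). TGFB2 stood at 17.7 to 18.4 CPM with DUX4 and 5.24 to 5.61 CPM with DUXC, against 22.3 to 22.6 CPM in GFP cells (1.72). NOG, the BMP antagonist noggin, was higher with DUX4 (2.31). IGF1, a growth factor for muscle, was far below GFP with both factors, at 214 to 227 CPM with GFP, 25.1 to 26.1 CPM with DUXC and 4.31 to 5.97 CPM with DUX4 (-2.30). Its binding protein gene IGFBP5 was higher with DUX4 (1.88), as was STC2, which blocks the protease that frees IGF, at 87.4 to 89.1 CPM against 12.2 to 13.5 CPM (2.80).

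Genes of the extracellular matrix differed in both directions. TNC, the matrix protein tenascin C, stood at 10714, 11271 and 11686 CPM with DUX4, against 907, 890 and 906 CPM with DUXC and 2995 to 3239 CPM with GFP (3.64, SE 0.035, adjusted p = 1.04e-51). THBS1, thrombospondin, stood at 13130 to 13980 CPM with DUX4 and 4643 to 4968 CPM with DUXC, against 17241 to 17378 CPM in GFP cells (1.48). Of 55 tested matrix glycoproteins 24 were higher with DUX4 and 29 with DUXC, and of 36 tested collagens 15 were higher with DUX4 and 19 with DUXC (median -0.67). The abundant fibrillar collagen COL1A1 stood at 9835 to 11281 CPM with DUX4 and 5109 to 5380 CPM with DUXC (1.00), and COL5A1 at 2488 to 2514 and 631 to 657 CPM (1.95). COL11A1, a collagen of cartilage, stood at 136 to 148 CPM with DUXC, 10 to 11.4 CPM with DUX4 and 3.49 to 4.21 CPM with GFP (-3.71). The cartilage proteoglycan gene ACAN was scarce but on the same side, at 1.69 to 1.73 CPM with DUXC and 0.0246 to 0.0688 CPM with DUX4 (-5.30). The fibroblast marker sums given above were higher with DUX4 than with DUXC and highest with GFP, 5 of the 8 markers being higher with DUX4 and 3 with DUXC, and their part in the matrix genes was not tested.

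Some proteases that cut the matrix were far higher with DUXC. ADAMTS4, which cleaves aggrecan, stood at 1339, 1452 and 1374 CPM with DUXC, at 41.1, 47.3 and 44.9 CPM with DUX4 and at 18.5 to 19.2 CPM with GFP (-4.97). MMP12, the macrophage elastase, stood at 140, 148 and 147 CPM with DUXC and at 1.16, 0.688 and 0.461 CPM with DUX4 (-7.55), and MMP13, a collagenase, at 5.99 to 7.42 and 0.103 to 0.161 CPM (-5.67). Over the whole list of proteases and inhibitors the sides were even, 21 of 51 higher with DUX4 and 22 with DUXC. CTGF, a matrix protein and target of YAP, stood at 3133, 3198 and 3099 CPM with DUXC and at 300, 303 and 306 CPM with DUX4 (-3.37), and the receptor gene PDGFRA of stromal cells stood at 918 to 941 CPM with DUXC, 367 to 377 CPM with GFP and 149 to 171 CPM with DUX4 (-2.51). Against these, the YAP target AXL, a receptor kinase, stood at 441 to 452 CPM with DUX4 and 106 to 108 CPM with DUXC (2.07).

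Peptide hormones and their receptors were another place where each factor had its own set. Of 46 tested members 24 were higher with DUXC and 13 with DUX4 (median -0.53). Besides CCK, TAC1 and VGF, the DUX4 side held SST, the peptide somatostatin (3.66), and NTSR1, a neurotensin receptor (2.30). Besides CRHBP and HTR1F, the DUXC side held ADCYAP1, the neuropeptide PACAP, at 43.2, 48.4 and 45.6 CPM against 0.221, 0.298 and 0.282 CPM with DUX4 (-7.40), and PTHLH, the parathyroid hormone-related peptide, at 104 to 110 CPM against 31.7 to 34.2 CPM with DUX4 and 1.1 to 1.51 CPM with GFP (-1.69). The markers of neural cells summed to 4.4 to 4.51 CPM with DUX4 and 2.19 to 2.38 CPM with DUXC, against 1.74 to 2.21 CPM in GFP cells, 3 of the 4 in the table under 1 CPM in each group, and their part in the peptide genes was not tested.

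Respiration and protein synthesis differed by small amounts. Of 50 tested genes of oxidative phosphorylation 43 were higher with DUX4 and 3 with DUXC, yet the median was only 0.28. NDUFA5, a subunit of complex I, stood at 43.2 to 46.1 CPM with DUX4 and 19.7 to 20.9 CPM with DUXC (1.14), and was the 1 member at least 2-fold higher with DUX4; COX7A1, the muscle form of a complex IV subunit, was the 1 at least 2-fold higher with DUXC, at 4.03 to 4.58 CPM against 1.63 to 2.08 CPM (-1.20). Mitochondrial ribosomal protein genes were alike, 55 of 75 higher with DUX4 and 13 with DUXC (median 0.29). Cytosolic ribosomal protein genes lay close to equal, between -0.47 and 0.58, with 17 of 77 higher with DUX4 and 35 with DUXC with TMM scaling and 10 and 57 when counts were scaled by library size alone. EEF1A2, an elongation factor of muscle and neurons, was an exception among 52 translation factors in a list with a median of 0.25, at 246, 263 and 259 CPM with DUX4 and at 28, 28.4 and 27 CPM with DUXC (3.20).

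RNA export had a few strong differences in a list that leaned the other way, 24 of 46 tested members higher with DUX4 and 13 with DUXC. Together with NXF1, its adaptor gene ALYREF stood at 283 to 306 CPM with DUXC and 80.9 to 87.7 CPM with DUX4 (-1.80), and the helicase gene DDX39A at 387 to 426 and 107 to 111 CPM (-1.90). In all 3 export genes the GFP libraries lay below both factors. Chromatin regulators of the Polycomb group and histone demethylases were higher with DUXC in 25 of 44 and with DUX4 in 15 (median -0.20). EED, a core subunit of the Polycomb repressive complex, stood at 107 to 116 CPM with DUXC and 24.9 to 25.5 CPM with DUX4 (-2.14), and the demethylase gene PHF8 at 71.3 to 73.8 and 15.7 to 16 CPM (-2.19). The maintenance DNA methyltransferase gene DNMT1 was higher with DUX4, at 134 to 135 CPM against 41.5 to 43.8 CPM (1.66). SMCHD1, the chromatin protein whose loss permits DUX4 expression in human muscle, stood at 61.1 to 62.8 CPM with DUX4 and 51.1 to 55.2 CPM with DUXC, against 69.1 to 71.5 CPM in GFP cells (0.22).

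The 5 adipocyte markers summed to 8.7 to 9.46 CPM with DUXC, 1.54 to 1.75 CPM with DUX4 and at most 0.0513 CPM with GFP. FABP4, a fatty acid carrier, made up nearly all of these sums, at 8.57, 8.64 and 9.3 CPM with DUXC, at 1.62, 1.49 and 1.56 CPM with DUX4 and at 0 with GFP (-2.50). The other 4 were under 1 CPM with either factor, PLIN1, which coats lipid droplets, at no more than 3 counts. The longer list of adipocyte lipid genes had no such lean, with 13 of 26 tested members higher with DUX4, 11 with DUXC and a median of 0.086. The 4 epithelial markers in the table summed to 1.27 to 1.52 CPM with DUXC, 0.0246 to 0.161 CPM with DUX4 and at most 0.0513 CPM with GFP, all 4 under 1 CPM in every group. The longer list of epithelial, keratin and epidermal genes divided, with 13 of 34 tested members higher with DUX4, 15 with DUXC and a median of -0.30. Its member with the smallest p-value, DSC2, stood at 57.1 to 61.1 CPM with DUX4 and 8.35 to 8.79 CPM with DUXC (2.78).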

How the data were processed

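RNA was sequenced in 9 libraries, 3 per group. The authors deposited 1 table of raw counts per gene; the submitters' processing notes name CASAVA 1.9, Trim Galore, featureCounts and the pig genome build Sscrofa11.1, and no source used here gives settings such as strand. From these counts, edgeR 4.0.16 (with limma 3.58.1, in R 4.3.3) gave TMM scaling factors, CPM and log2 differences: genes passed filterByExpr by group, 1 robust quasi-likelihood fit held all 9 libraries, and the contrast was DUX4 minus DUXC with Benjamini-Hochberg adjustment over 15956 genes at 0.05. Total counts per library were 36580573 to 44420895, and a gene without counts over 3 DUX4 libraries allows up to 0.02433 CPM (3 counts). Intervals of ratios cover counting error only, at 95%. An exact permutation test of 3 against 3 libraries cannot go below p = 0.1, so none is given. On simulated counts for 12439 genes the fit found 89.6% of genes changed by 0.5 on the log2 scale and all changed by 1 or 3, and called 13 of 12239 unchanged genes. The simulation held only genes of at least 1 CPM with DUX4, changed few of them, about equally in both directions, and gave all groups the same spread. In the real data most genes were called, the large differences were unequal in direction and the spread differed by group. These rates therefore do not carry over to the real comparison.

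Groups came from the sample titles. The labels do not say whether the numbers in the titles pair the libraries. Correlations between the deviations of same-numbered libraries, over all genes tested, ran from -0.0258 to 0.0318. They cannot exclude pairing, because counting noise in scarce genes can hide a shared effect. Genes were named by a rule: the 12 with the largest difference in each direction among called genes with a symbol, 5 CPM or more with the higher factor and no overlap between libraries; up to 4 members of each of 58 lists by smallest p; and a short set chosen by hand. Other genes were named after their values were seen, mostly members that went against their list. The rule, lists and members were all chosen with earlier results of these data known. Alternatives were other scalings, no filter, 6 libraries, a replicate block, DESeq2 1.42.0 and leaving out each library. RefSeq positions on Sscrofa11.1 matched 26838 genes by symbol.

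Counts of genes whose spans overlap another gene may hold reads of that gene. Among the genes named in the results these are ACAN, ADCYAP1, ALYREF, AURKB, CDK1, CKS2, CLSPN, COL11A1, CXCL10, CYP7A1, DDX39A, E2F7, EED, ESRRB, GAPDH, GATA2, HAND1, HIF1A, HOXA10, HOXB6, IFIT1, IGF1, IRF1, MAGEB3, MMP13, MSTN, MYF5, NANOG, NFE2L2, NFKBIA, NUPR1, NXF1, OAS1, ORC1, P2RY6, P4HB, PLK1, PLK3, PLN, REL, RNF17, SCARA5, SLC1A6, SMCHD1, SYNPO2, UHRF1, VEGFA and ZSCAN4.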

Additional observations from a re-analysis of the deposited data

How the results depend on the processing

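Over 15 alternatives the 4 counts of all genes stayed within 1.5 times their values. DESeq2 called 5918 genes higher with DUX4 and 6742 higher with DUXC, and the fit with the replicate block called 6492 and 6600. Leaving out each library gave 6371 to 6617 and 6541 to 6830, and at 2-fold or more 1578 to 1620 and 3360 to 3535; 1205 of the 1568 and 3006 of the 3309 genes were at least 2-fold higher in every setting. Scaling by library size alone moved the median log2 difference to -0.108 and the share of calls higher with DUX4 from 49.5% to 43.8%. Of 332 genes followed singly, 322 kept their direction and call in every alternative. With library size alone CDKN1A reversed to -0.00763 and ARRDC3 to -0.01184. TOP2A and SFRP2, not called and near 0, changed sign without the low-count filter (0.03648 and 0.0188) and on leaving out single libraries, from -0.03994 to 0.04693 for TOP2A and from -0.05113 to 0.01499 for SFRP2. List counts moved in 29 of 1740 cases. With library size alone 10 ribosomal protein genes were higher with DUX4 and 57 with DUXC, and 4 HOX and 4 p53 pathway genes were higher with DUX4. Without the low-count filter 17 germline genes and 10 endothelial cell genes were higher with DUXC and 1 interferon gene was higher with DUX4. The endothelial count also moved on leaving out single libraries, for example from 5 to 9 without DUX4 library 1. The causes were not tested. The replicate block changed no call of the genes followed. Depth limits genes with few counts in the DUX4 libraries, whose folds are bounds or wide intervals.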

Other observations

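Several lists that stood on neither side held single genes with wide differences. Of 72 tested lysosomal and autophagy genes 40 were higher with DUX4 and 25 with DUXC (median 0.21), and GLA, the lysosomal alpha-galactosidase, stood at 440, 487 and 463 CPM with DUXC, at 25.8, 23.8 and 25 CPM with DUX4 and at 22.6 to 23.4 CPM with GFP (-4.22). Of 49 tested WNT pathway genes 18 were higher with DUX4 and 22 with DUXC. The ligand gene WNT11 stood at 36.3 to 39.2 CPM with DUX4, 4.49 to 5.78 CPM with DUXC and 9.59 to 9.72 CPM with GFP (2.92), while WNT3 differed by -4.25. SFRP2, a secreted WNT inhibitor, stood at 1830 to 1974 CPM with DUX4 and 1851 to 1993 CPM with DUXC, was not called (-0.02, adjusted p = 0.49; -0.1239, adjusted p = 0.000197 with library size alone), and stood at 6878 to 7016 CPM with GFP.

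Among 27 tested Notch genes 11 were higher with DUX4 and 12 with DUXC. HEYL, a repressor downstream of Notch, stood at 3.82 to 4.36 CPM with DUXC, 0.0459 to 0.205 CPM with DUX4 and 0.462 to 0.539 CPM with GFP (-4.93). The receptor gene NOTCH3 stood at 18.6 to 20.2 CPM with DUX4 and, without overlap, somewhat lower at 15.2 to 16 CPM with DUXC. Both were far below its 103 to 111 CPM with GFP. KCNE4, a potassium channel subunit, also stood far higher with GFP, at 85.4 to 89.2 CPM, than with DUX4, at 12 to 12.7 CPM, or DUXC.

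Lipid genes differed by branch. Of 51 tested genes of sterol and fatty acid synthesis 26 were higher with DUX4 and 17 with DUXC. SCD, a fatty acid desaturase (1.21), and FASN, fatty acid synthase (0.97), were higher with DUX4, and SQLE, a cholesterol synthesis enzyme (-0.90), was higher with DUXC. HSD11B1, which regenerates active glucocorticoid, stood at 8.84 to 10.5 CPM with DUXC, 4.93 to 5.31 CPM with GFP and 0.103 to 0.298 CPM with DUX4 (-5.71). EGR1, an immediate early gene, stood at 335, 393 and 367 CPM with DUXC, at 68.3, 79.6 and 76.6 CPM with DUX4 and at 81.4 to 103 CPM with GFP (-2.29).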
